A study of Mus musculus with 24 samples.

Results

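The 9 genes described here mark the principal neurons of the hippocampal subfields, and were taken by gene name from a table of 22314 named genes. Prox1, C1ql2, Calb1 and Lct are markers of dentate gyrus granule cells, Fibcd1, Wfs1, Pou3f1 and Spink8 are markers of CA1 pyramidal cells, and Neurod6 is shared by the pyramidal cells of CA1 to CA3. All 9 were among the 18364 genes that passed the filter on low values. The RNA came from hippocampus of mice on postnatal day 10 that underwent hypoxia-ischemia, which models brain injury around birth. There were 24 libraries in 12 groups of 2: wild-type (WT) mice, mice labelled Neil1-KO and Neil2-KO mice, each at 3 h and at 6 h, with the contralateral and the injured ipsilateral hippocampus as separate libraries. Neil1 and Neil2 encode DNA glycosylases that start the repair of oxidized bases. The labels do not settle whether 3 h and 6 h are times after the insult. They name no group without it, so the contralateral side is an exposed comparison side and not an uninjured control. Libraries of both sides with the same genotype, time and number were taken to come from 1 animal, as the design of the series implies.

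Each library held 17771293 to 29252067 reads, and values are normalized read counts on a scale shared by all libraries. Neil2 was at 0 to 3.02 in the Neil2-KO libraries and at 15.2 to 27.8 in WT. Neil1 stood at 91.6 to 155 in the labelled Neil1-KO libraries and at 56.8 to 123 in WT, so its reads did not bear out that label, although reads from exons that an allele keeps cannot test it. All 9 subfield genes had reads in every library, as did every gene of the lists for other dentate, CA1, CA2 and CA3 cells. The ipsilateral libraries of 2 animals at 6 h stood apart from the rest in these genes: WT replicate 2 and labelled Neil1-KO replicate 2. The 6 h side differences of the 9 genes, averaged over genotypes, are given with and without these animals.

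The hippocampus passes signals from granule cells of the dentate gyrus through mossy fibres to CA3, and from CA3 to CA1, which sends them out. Each stage keeps its own set of transcription factors and synaptic proteins, and such genes are used to tell the subfields apart in tissue. CA1 pyramidal cells are known for their sensitivity to ischemia in the adult. In bulk tissue, fewer cells of a type and less RNA per cell cannot be told apart, nor can either be told apart from a different share of the subfield in the piece that was taken.

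Start-site sequences are shown for a pair of genes with a NeuroD-type E-box, the motif bound by basic helix-loop-helix factors such as Neurod6 and Neurod1, and for the 2 genes with the largest decreases, which lack it. RefSeq entries on GRCm38.p6 were held for 6 of the 9 genes (Prox1, C1ql2, Lct, Fibcd1, Wfs1 and Neurod6, with 2 entries for Prox1). Each is 300 bases, from 250 before to 50 after the annotated start, 5′ to 3′ on the gene's strand, with the E-box CAGATG on either strand in capitals.
Prox1, chr1:190170778-190171077, minus strand: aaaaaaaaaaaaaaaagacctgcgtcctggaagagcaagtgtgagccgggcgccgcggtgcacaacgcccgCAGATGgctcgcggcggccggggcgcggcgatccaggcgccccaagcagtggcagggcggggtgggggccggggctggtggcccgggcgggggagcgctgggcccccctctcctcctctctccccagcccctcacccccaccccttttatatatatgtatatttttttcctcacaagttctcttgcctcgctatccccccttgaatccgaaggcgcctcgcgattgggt
Wfs1, chr5:36988933-36989232, minus strand: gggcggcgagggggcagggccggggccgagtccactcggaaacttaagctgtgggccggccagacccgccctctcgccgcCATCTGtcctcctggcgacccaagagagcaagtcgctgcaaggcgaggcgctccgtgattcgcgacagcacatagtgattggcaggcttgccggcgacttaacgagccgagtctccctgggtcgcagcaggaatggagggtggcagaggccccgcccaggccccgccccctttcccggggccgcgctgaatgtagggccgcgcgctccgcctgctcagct
Lct, chr1:128328269-128328568, minus strand: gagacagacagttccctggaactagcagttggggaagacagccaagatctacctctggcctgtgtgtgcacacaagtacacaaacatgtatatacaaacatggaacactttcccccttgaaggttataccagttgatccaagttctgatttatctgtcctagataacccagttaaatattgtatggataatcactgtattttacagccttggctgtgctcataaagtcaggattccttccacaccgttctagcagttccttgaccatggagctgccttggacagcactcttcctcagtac
Fibcd1, chr2:31845956-31846255, minus strand: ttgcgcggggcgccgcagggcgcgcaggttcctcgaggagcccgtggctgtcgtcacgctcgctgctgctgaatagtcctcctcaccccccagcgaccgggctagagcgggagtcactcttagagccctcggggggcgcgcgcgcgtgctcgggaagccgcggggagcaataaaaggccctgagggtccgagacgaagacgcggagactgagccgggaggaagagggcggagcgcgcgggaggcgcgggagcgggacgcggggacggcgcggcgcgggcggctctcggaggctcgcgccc
CAGATG was found in 2 of the 7 entries, that of Prox1 shown here and that of Wfs1, against 17.2% of 32851 RefSeq promoters of the same length. Prox1 and Wfs1, the genes that share it, had the lowest correlation of any pair of the 9 across the 24 libraries. These include WT ipsilateral replicate 2 at 6 h, with the least Prox1 (335) and the most Wfs1 of any ipsilateral library (2493). The correlation was not computed without it, and its relation to the motif was not tested. CAGCTG (16.3% of all promoters), the AP-1 motif TGANTCA (7.81%) and the cyclic AMP response element TGACGTCA (1.79%) were in none of the 7. CCAAT (37.4% of all promoters) was found for Prox1, Wfs1 and Neurod6, and TATAAA (13.6%) for Prox1, with both strands searched throughout. A match is a description of letters and not a binding site.

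The sides were compared first, to ask how the subfield genes stood in the injured hippocampus. Averaged over the 3 genotypes, 6 of the 9 genes were lower on the ipsilateral side at 3 h and all 9 at 6 h, and none was higher at either time. Over all genes tested, 17.4% were lower and 14.1% higher at 3 h, and 24.7% were lower and 24% higher at 6 h. The median log2 fold change of the 9 genes was -0.75 at 3 h and -1.23 at 6 h, beside 0.01 and 0.02 over all genes tested. Without the 2 animals that stood apart, the median at 6 h was -0.80, beside 0.01 over all genes tested. Both subfields took part: 3 of 4 dentate genes and 3 of 4 CA1 genes fell at 3 h, and 4 of 4 of each at 6 h. A gene was called where limma gave a p under 0.05 after Benjamini-Hochberg adjustment across the tested genes, with 6 libraries a side.

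**Figure D1:**
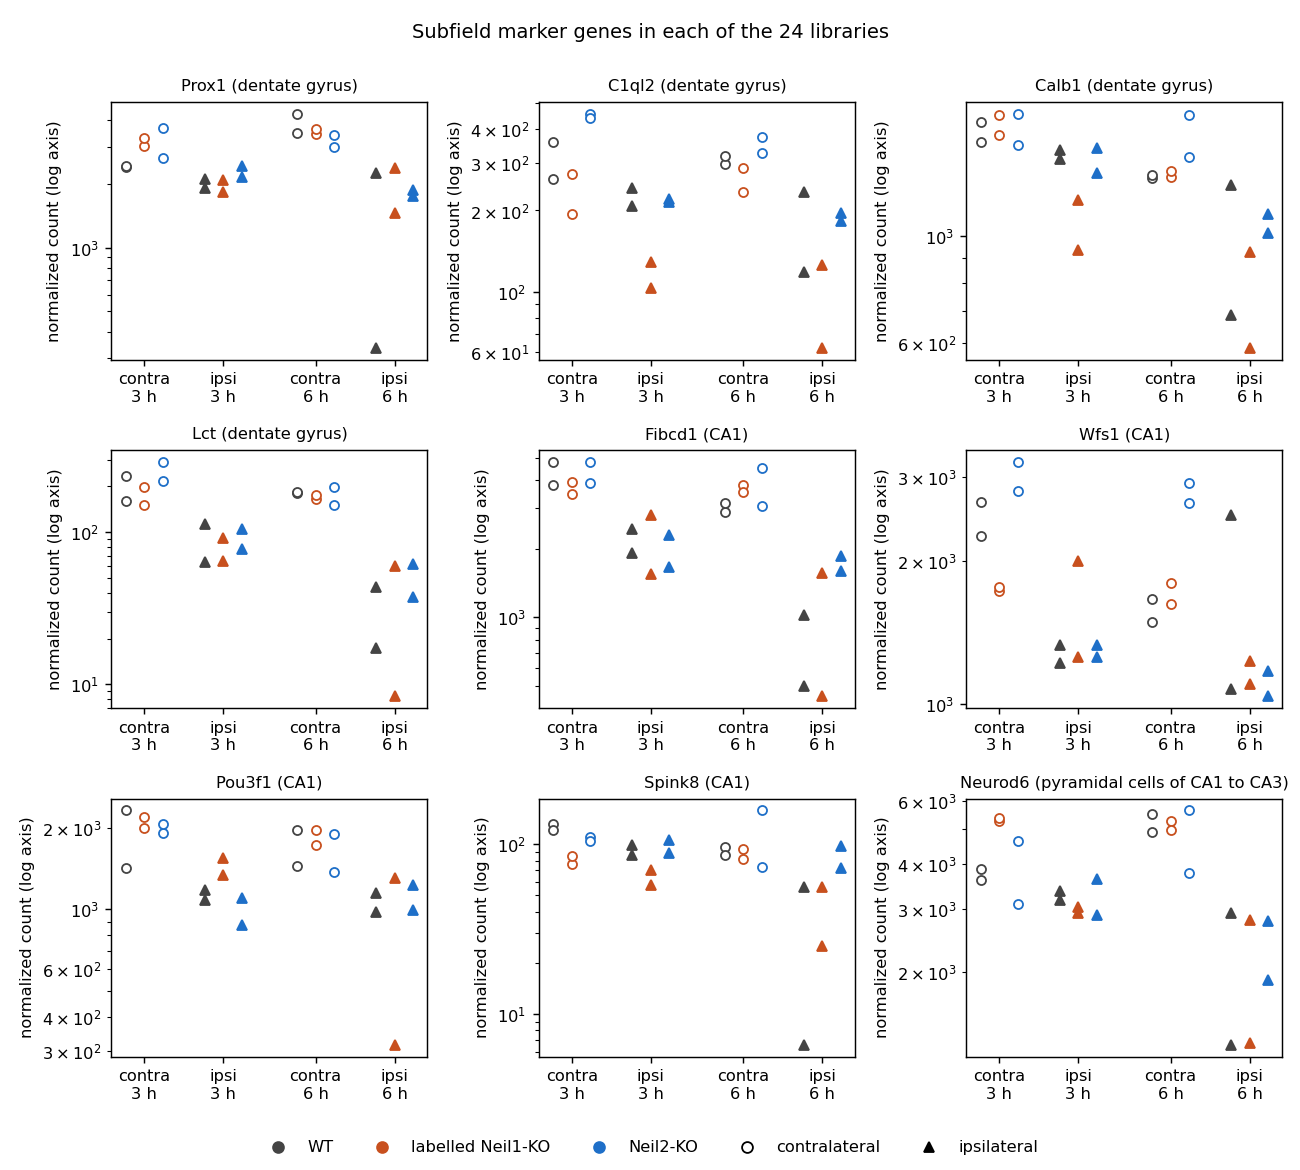
Normalized count of each of the 9 genes (log axis) in the 24 libraries, by side and time, with 1 point a library, colour for genotype, open circles for contralateral and filled triangles for ipsilateral. At 6 h the ipsilateral points of Lct lie between 8.33 and 61.5 and the contralateral ones between 150.0 and 199, while the ipsilateral points of Wfs1 and Spink8 reach into the contralateral range.

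Among the dentate genes, Lct, which encodes the disaccharidase lactase and marks granule cells in the mouse, fell the most. At 3 h, Lct stood at 232 and 161 normalized counts contralaterally and 114 and 63.3 ipsilaterally in WT. The labelled Neil1-KO libraries had 150.3 and 199 against 91.2 and 65.00, and the Neil2-KO libraries 289 and 218 against 105 and 77.5. Every ipsilateral library was below every contralateral one. Contralateral values at 6 h were 181 and 183 in WT, 165 and 174 in labelled Neil1-KO and 150.0 and 199 in Neil2-KO. The ipsilateral ones were 43.6 and 17.3, 60.4 and 8.33, and 37.7 and 61.5. The sides were again fully separate, and the lowest library, labelled Neil1-KO replicate 2, held 9 reads of the gene. The log2 fold change of Lct was -1.27 (SE 0.34; limma adjusted p = 0.0078, n = 6 libraries a side) at 3 h and -2.44 (SE 0.34; adjusted p = 1.1e-05) at 6 h, and 0.0109% of the genes tested had a lower value at 6 h. Without the 2 animals that stood apart it was -1.76 at 6 h (adjusted p = 4.2e-05).

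Prox1, the transcription factor that specifies and maintains granule cells, was less separated at 3 h. Its contralateral values at 3 h were 2394 and 2421 in WT, 3019 and 3292 in labelled Neil1-KO and 3681 and 2660.3 in Neil2-KO. Ipsilaterally they were 1923 and 2103, 2081 and 1842, and 2422 and 2160.1. The highest ipsilateral value exceeded the lowest contralateral one by a small margin, and the log2 fold change of -0.47 (SE 0.29) was not called (limma adjusted p = 0.23, n = 6 libraries a side). With the 2 animals of 6 h left out, the spread shared by all groups was smaller and the same 3 h difference was called (adjusted p = 0.00022). At 6 h, Prox1 was 3474 and 4309 contralaterally and 2264 and 335 ipsilaterally in WT. In labelled Neil1-KO it was 3460.1 and 3642 against 2390.1 and 1463, and in Neil2-KO 2997 and 3421 against 1758 and 1874. The sides did not overlap, but 1 library, WT ipsilateral replicate 2, lay far under the other 5. The log2 fold change at 6 h was -1.30 (SE 0.29; limma adjusted p = 0.0011, n = 6 libraries a side), -0.84 without that library, and -0.66 without both animals that stood apart (adjusted p = 9.9e-05).

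C1ql2 encodes a secreted C1q-like protein of mossy fibre synapses, where it binds kainate receptors. At 3 h, C1ql2 was 261 and 358 contralaterally against 207 and 242 ipsilaterally in WT, 195 and 273 against 103 and 129 in labelled Neil1-KO, and 456 and 439 against 220.4 and 216 in Neil2-KO. At 6 h, the pairs were 296 and 317 against 234 and 118, 286 and 234 against 126 and 62.03, and 326 and 373 against 183 and 196. The labelled Neil1-KO libraries were lowest on the ipsilateral side at 3 h and held the lowest value at 6 h. C1ql2 had a log2 fold change of -0.82 at 3 h (SE 0.17; limma adjusted p = 0.0013, n = 6 libraries a side) and of -1.10 at 6 h (SE 0.17; adjusted p = 4e-05). Without both animals that stood apart it was -0.80 at 6 h. At 6 h its sides were separate by a margin of less than 1 normalized count (234.1 against 234.2).

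Calb1 encodes the calcium-binding protein calbindin, which granule cells share with some CA1 pyramidal cells and interneurons. At 3 h it was 1541 to 1788 contralaterally (median 1664) and 932 to 1517 ipsilaterally (median 1393). At 6 h it was 1317 to 1775 contralaterally (median 1347) and 586 to 1270.2 ipsilaterally (median 969). The sides were separate at both times, and the lowest ipsilateral library was a labelled Neil1-KO one each time. Calb1 fell by 0.35 at 3 h (log2; SE 0.13; limma adjusted p = 0.044, n = 6 libraries a side), a call that 10 of 12 fits without 1 library lost, and by 0.66 at 6 h (SE 0.13; adjusted p = 0.00037). Without both animals that stood apart its value at 6 h was -0.39 (adjusted p = 0.0059).

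Among the CA1 genes, Fibcd1, which encodes a membrane protein with a fibrinogen-like domain that binds acetylated structures, fell the most. Its contralateral values at 3 h were 3789.9 and 4761 in WT, 3464 and 3893 in labelled Neil1-KO and 4784 and 3867 in Neil2-KO. The ipsilateral ones were 2435 and 1907, 1549 and 2813, and 2292 and 1663. Each animal had less on the ipsilateral side, at 40.1% to 72.3% of its contralateral value. At 6 h, Fibcd1 was 2897 and 3174 against 1022 and 499 in WT, 3797 and 3545 against 1558 and 451 in labelled Neil1-KO, and 3073 and 4499 against 1852 and 1598 in Neil2-KO. The sides were separate at both times, and replicate 2 of WT and of labelled Neil1-KO were lowest. The log2 fold change was -0.98 (SE 0.24; limma adjusted p = 0.0046, n = 6 libraries a side) at 3 h and -1.78 (SE 0.24; adjusted p = 8.8e-06) at 6 h, where 0.196% of the genes tested were lower. Without the 2 animals that stood apart it was -1.30 (adjusted p = 6.6e-05).

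Wfs1 encodes wolframin, a protein of the endoplasmic reticulum membrane. It marks CA1 within the hippocampus and is also expressed outside it, in upper layers of neocortex, the extended amygdala and ventral striatum. At 3 h, Wfs1 was 2261 and 2659 contralaterally against 1333 and 1219.8 ipsilaterally in WT. It was 1734 and 1765 against 2001 and 1257 in labelled Neil1-KO, and 2799 and 3228 against 1256 and 1333 in Neil2-KO. In labelled Neil1-KO replicate 1 the ipsilateral side was thus the higher one, at 115% of the contralateral. At 6 h, the values were 1661 and 1487 against 1078 and 2493 in WT, 1802 and 1624 against 1233 and 1104 in labelled Neil1-KO, and 2910.4 and 2651 against 1039 and 1174 in Neil2-KO. WT ipsilateral replicate 2, the library with the least Prox1, had the most Wfs1 of the 6 ipsilateral libraries, at 168% of its contralateral partner. Wfs1 fell by 0.77 at 3 h (log2; SE 0.15; limma adjusted p = 0.00071, n = 6 libraries a side) and by 0.61 at 6 h (SE 0.15; adjusted p = 0.0025). Without both animals that stood apart it was -0.83 at 6 h (adjusted p = 8.3e-05).

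Pou3f1, a POU-domain transcription factor, was 1416 to 2321 contralaterally (median 2035) and 872 to 1551 ipsilaterally (median 1140.1) at 3 h. At 6 h it was 1377 to 1964 contralaterally (median 1812) and 315 to 1305 ipsilaterally (median 1067). The sides overlapped at 3 h and not at 6 h, and the library at 315 was labelled Neil1-KO replicate 2, with the next lowest at 976. Pou3f1 fell by 0.75 at 3 h (log2; SE 0.23; limma adjusted p = 0.020, n = 6 libraries a side) and by 0.91 at 6 h (SE 0.23; adjusted p = 0.0033). The 3 h call was lost without WT contralateral replicate 2 (adjusted p = 0.071) or Neil2-KO ipsilateral replicate 2 (adjusted p = 0.057). At 6 h the value was -0.57 without the labelled Neil1-KO ipsilateral library at 315, and -0.71 without both animals that stood apart.

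Spink8, which encodes a Kazal-type protein of the serine protease inhibitor family, was at 76.4 to 132 contralaterally (median 108) and 57.2 to 106 ipsilaterally (median 87.6) at 3 h, with overlap and no call (log2 fold change -0.31, SE 0.34; limma adjusted p = 0.52, n = 6 libraries a side). At 6 h it was 96.2 and 85.8 against 56.1 and 6.58 in WT, 81.4 and 93.9 against 56.03 and 25.00 in labelled Neil1-KO, and 73.4 and 158 against 97.4 and 72.8 in Neil2-KO. The lowest value came from 8 reads in WT ipsilateral replicate 2, and in Neil2-KO replicate 1 the ipsilateral side was the higher one, at 133%. The log2 fold change at 6 h was -1.23 (SE 0.34; limma adjusted p = 0.0059), -0.75 without WT ipsilateral replicate 2, and -0.55 without both animals that stood apart, where the call was lost (adjusted p = 0.054).

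Neurod6, a basic helix-loop-helix transcription factor of pyramidal neurons, was 3612 and 3862 contralaterally against 3373 and 3169 ipsilaterally at 3 h in WT. It was 5266 and 5373 against 2912 and 3032 in labelled Neil1-KO, and 4649 and 3088 against 3638 and 2885 in Neil2-KO. The sides were well separated in labelled Neil1-KO at 3 h and close or overlapping in the other genotypes. By 6 h the values were 4901 and 5496 against 2919 and 1254 in WT, 5279 and 4971 against 2786 and 1266 in labelled Neil1-KO, and 3774 and 5640.4 against 1906 and 2783 in Neil2-KO. All ipsilateral libraries were then below all contralateral ones, and without both animals that stood apart the 6 h log2 fold change was -0.89. The log2 fold change was -0.42 (SE 0.20; limma adjusted p = 0.12, n = 6 libraries a side) at 3 h, called without the 2 animals of 6 h (adjusted p = 0.014), and -1.30 (SE 0.20; adjusted p = 3e-05) at 6 h.

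Counted over libraries, 3 genes had no overlap between the 6 ipsilateral and 6 contralateral libraries at 3 h (Lct, Calb1 and Fibcd1) and 7 at 6 h (all but Wfs1 and Spink8). All 6 ipsilateral libraries lay below all 6 contralateral ones for 11.2% of genes tested at 3 h and 12.1% at 6 h.

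Within single animals, the ipsilateral percentage had a wider range at 6 h than at 3 h for 8 of the 9 genes, all but Neurod6. Without the 2 animals that stood apart, this held only for C1ql2 and Spink8. Prox1 then ran from 54.8% to 69.1% at 6 h, beside 56.0% to 86.9% at 3 h. At 3 h the ipsilateral percentage ran from 32.7% for Lct in labelled Neil1-KO replicate 2 to 115% for Wfs1 in labelled Neil1-KO replicate 1. At 6 h, Lct ran from 4.78% to 36.7% (median 24.6%), Prox1 from 7.77% to 69.1% (median 56.7%) and Neurod6 from 22.8% to 59.6% (median 49.9%). Of the 6 animals at 6 h, 4 had all 9 genes lower ipsilaterally, and the others, WT replicate 2 (Wfs1 higher) and Neil2-KO replicate 1 (Spink8 higher), had 8.

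The dentate and CA1 genes were set against each other within each animal, as the mean log2 side ratio of the 4 dentate genes minus that of the 4 CA1 genes. The difference was 0.04 and 0.47 in WT at 3 h, -0.38 and -0.46 in labelled Neil1-KO and -0.07 and 0.24 in Neil2-KO. At 6 h it was 0.22 and -0.90 in WT, -0.18 and -0.20 in labelled Neil1-KO and -0.53 and 0.14 in Neil2-KO. The sign differed between animals of 1 genotype and time in Neil2-KO at both times and in WT at 6 h, so neither subfield's genes were lower throughout. All 4 labelled Neil1-KO animals had the dentate genes lower. The most uneven animal was WT 6 h replicate 2, with a mean ratio of -2.35 for the dentate genes and -1.44 for the CA1 genes, and within its CA1 genes Spink8 was at 7.67% and Wfs1 at 168%.

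Markers of neighbouring tissue moved with that animal. Its ipsilateral library had 940 normalized counts of the thalamus marker Tcf7l2 (153 contralaterally) and 275 of the striatum marker Drd1 (79.6 contralaterally). Summed over their lists, its ipsilateral level was 134% of the contralateral for 10 thalamus markers, 110% for 10 striatum markers and 167% for 10 neocortex markers. Its 12 neuron markers summed to 91.0% of the contralateral side, the highest share of the 6 animals at 6 h, while Prox1 was at 7.77%. The 10 other dentate gyrus genes summed to 103% of the contralateral side, the highest of the 6 animals at 6 h, with a mean log2 side ratio of -0.54. Oligodendrocyte lineage markers summed to 162% (67.8% in WT replicate 1), and astrocyte markers to 71.5%, the lowest at 6 h. WT replicate 1 at 6 h also had high Tcf7l2 ipsilaterally (582), with Prox1 at 65.2%. Over the 6 ipsilateral libraries at 6 h, the summed thalamus markers ran from 3664 to 6450 and over the contralateral ones from 3638 to 4834, and the sums for neocortex markers from 5290 to 9248 and from 5522 to 6497. At most 1 thalamus marker and no neocortex marker was at 0 in any of these libraries. The part of neighbouring tissue and of glial cells in this animal's values was not tested. The 6 h decreases averaged over genotypes had the same direction without this animal and the labelled Neil1-KO one. With a term for thalamus markers, 8 of the 9 were called in that average at 6 h (Spink8 was at -1.05, limma adjusted p = 0.069). The same term took the count in WT at 6 h from 6 to 0, and that for 6 h against 3 h ipsilaterally from 4 to 0. Such a term does not test the part of neighbouring tissue.

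Labelled Neil1-KO replicate 2 at 6 h, the other animal that stood apart, had the lowest or next lowest ipsilateral percentage of the 6 animals in 8 of the 9 genes, with Lct at 4.78%, Fibcd1 at 12.7%, Pou3f1 at 18.2% and Calb1 at 43.0% of the contralateral side, while Wfs1 was at 68.0%. Its 12 neuron markers summed to 47.5% of the contralateral level, the lowest share at 6 h. Endothelial markers summed to 265% of the contralateral side, microglia markers to 228% and astrocyte markers to 162%, each the highest of the 6 animals at 6 h. Their part in this animal's values was not tested. Its ipsilateral library had 21434 summed counts of 10 choroid plexus markers, against 478 contralaterally, and Ttr, the transthyretin transcript of that tissue, made up most of these (19798). Choroid plexus markers were uneven in other animals too, at 32308 contralaterally and 692 ipsilaterally in WT replicate 1, with at most 1 of the 10 at 0 in any library at 6 h. With a term for these markers in the fit, all 9 genes were called lower at 6 h, averaged over genotypes. The call of C1ql2 between labelled Neil1-KO and WT ipsilaterally was lost with it. Such a term does not test the part of choroid plexus in these values.

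**Figure D2:**
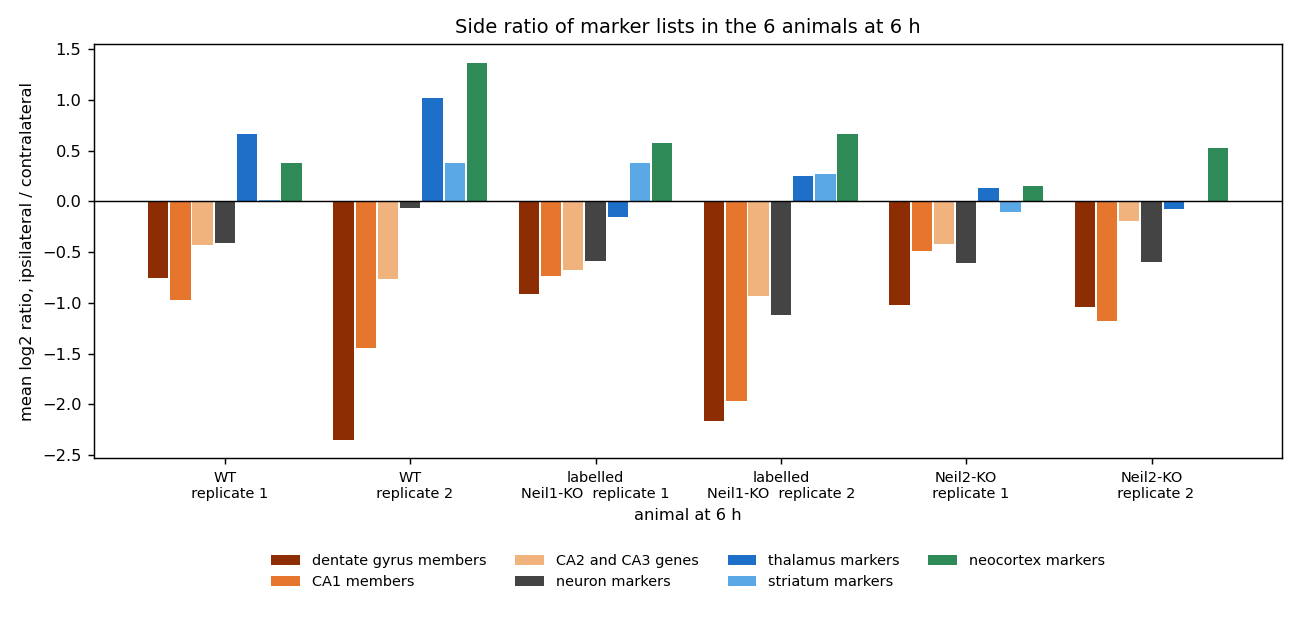
Mean log2 side ratio (ipsilateral over contralateral) of 7 gene lists in each of the 6 animals at 6 h, with 1 bar a list and 0 for equal sides. WT replicate 2 has a dentate bar at -2.35 beside a neuron bar at -0.06 and a neocortex bar at 1.36, and labelled Neil1-KO replicate 2 has dentate, CA1 and neuron bars at -2.17, -1.96 and -1.12.

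Other genes of the same subfields were examined next, from lists chosen by their known expression. Of 10 other dentate genes, 6 fell at 3 h and 7 fell and 2 rose at 6 h, with medians of -0.34 and -0.46. Dsp, the desmosomal protein desmoplakin, was at -1.63 at 6 h (log2; SE 0.30; limma adjusted p = 0.00023, n = 6 libraries a side), Rfx3 at -0.80 and Stxbp6 at -0.53, while Plk5 rose by 1.16 from a mean of 22.5 to 53.7 normalized counts. Of 10 other CA1 genes, 6 fell at 3 h and 7 at 6 h and none rose, with medians of -0.53 and -0.55. The receptor gene Nr3c2, for mineralocorticoids, was at -1.88 at 6 h (log2 fold change), the transcription factor gene Zbtb20 -1.40, Epha7, an ephrin receptor, -1.37 and Gpr161 -1.01. Of 12 genes of CA2 and CA3, 5 fell at 3 h and 9 at 6 h, with medians of -0.28 and -0.64. Rgs14, a regulator of G protein signalling that marks CA2, was at -1.39 at 6 h (SE 0.13; limma adjusted p = 1.1e-07, n = 6 libraries a side), Cpne4 at -1.13, Amigo2 at -0.97 and the adhesion molecule gene Nectin3 at -0.75. The shares of all genes that were lower, 17.4% and 24.7%, stand beside each of these counts, and no list was tested against others. Without the 2 animals that stood apart, the 6 h medians were -0.33 for other dentate, -0.58 for other CA1 and -0.44 for CA2 and CA3 genes.

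Markers shared by neurons and lists of other neuron types were counted in the same way. Of all genes tested, 17.4% were lower at 3 h, and 24% were higher and 24.7% lower at 6 h. All 12 neuron markers fell at 6 h and 8 at 3 h, with medians of -0.59 and -0.33, and Map2, a dendritic microtubule protein, fell the most (-0.88). Of the 9 subfield genes, 7 had a lower value at 6 h than any of the 12 neuron markers, the exceptions being Calb1 and Wfs1. Without the 2 animals that stood apart, 5 did (C1ql2, Lct, Fibcd1, Wfs1 and Neurod6). Of 10 interneuron markers, 2 fell (Cnr1 and Gad2) and 1 rose (Sst) at 6 h, with a median of -0.02. Hilar mossy cell genes rose for 4 of 6 and fell for 2 at 6 h, with a median of 0.75. The risen ones were at low levels (Csf2rb2 went from a mean of 56.8 to 139). Those that fell, Calb2 (1823 to 1499) and Ociad2 (902 to 559), were at higher ones. The summed list had a median of 2982 contralaterally and 2444 ipsilaterally at 6 h. Without the 2 animals that stood apart, the 6 h medians were -0.57 for neuron markers, 0.09 for interneuron markers and 0.77 for mossy cell genes. Of 16 genes that act in the development of granule and pyramidal cells, 8 fell and 1 rose at 6 h, among them Bcl11b (-1.60), Dcx (-1.01) and Zeb2 (-0.74), with Id2 rising (0.75).

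**Figure D3:**
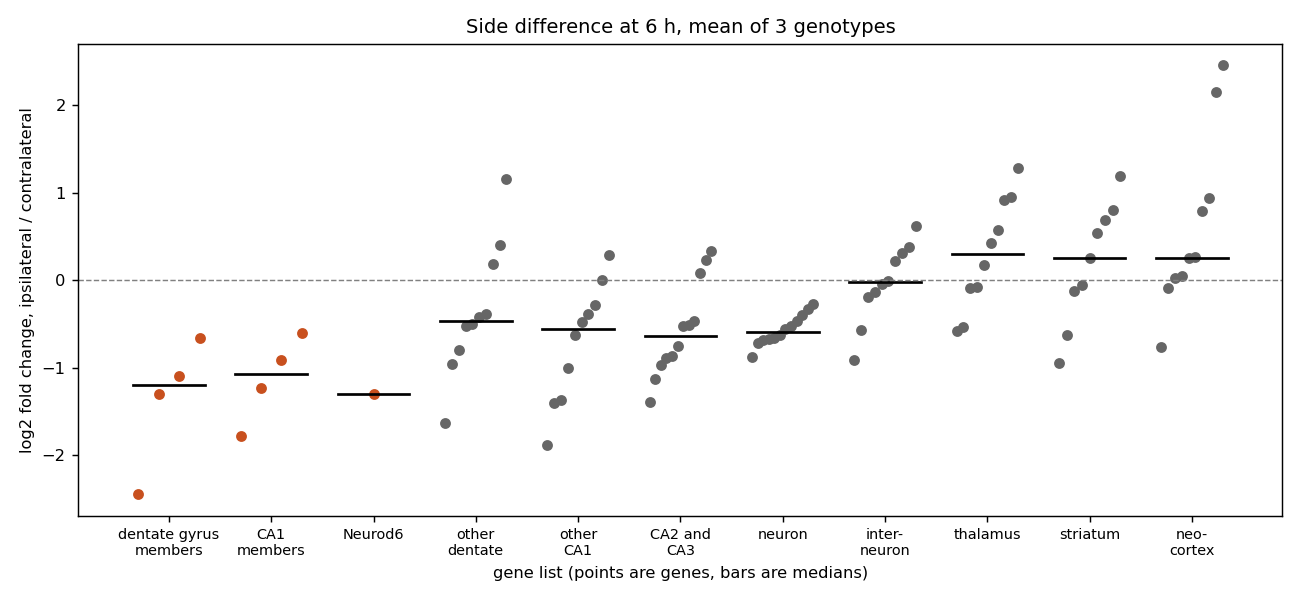
Log2 fold change between the sides at 6 h, averaged over the 3 genotypes, for the genes of 11 lists, with 1 point a gene and a bar at each list's median. The 9 subfield genes (orange) lie between -2.44 and -0.61, and the medians are -0.59 for neuron markers, -0.02 for interneuron markers and 0.30, 0.25 and 0.26 for markers of thalamus, striatum and neocortex. Without the 2 animals that stood apart (not drawn), the medians for thalamus, striatum and neocortex were 0.09, 0.31 and 0.22.

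Markers of non-neuronal cells and of neighbouring tissue were counted in the same contrast, where 24% of all genes tested were higher and 24.7% lower at 6 h. At 6 h, astrocyte markers rose for 4 of 10 and fell for 2 (median 0.27), microglia markers rose for 3 and fell for 2 of 10 (0.16), and endothelial markers rose for 6 and fell for 1 of 10 (0.47). For oligodendrocyte lineage markers the count was 1 of 10 in each direction (0.06). Thalamus markers rose for 3 of 10 and fell for 2 (0.30), striatum markers rose for 3 and fell for 2 of the 9 tested (0.25), and neocortex markers rose for 4 and fell for 1 of 10 (0.26), with Cplx3 (2.46), Ccn2 (2.15) and Rorb (0.79) among the risen. Cplx3 and Ccn2 mark the deepest cortical layer, and Ccn2 is also a secreted growth factor gene induced in many cell types. Choroid plexus markers fell for 1 of 10 (-0.60). Without the 2 animals that stood apart, the 6 h medians were 0.09 for thalamus, 0.31 for striatum and 0.22 for neocortex markers. They were then 0.19 for astrocyte, 0.01 for microglia, 0.47 for endothelial, -0.23 for oligodendrocyte lineage and -0.63 for choroid plexus markers. At 3 h the medians of the thalamus, striatum and neocortex lists were -0.03, 0.13 and 0.14, and the highest neocortex marker was at 3.19. The summed neocortex markers at 3 h had a median of 7898 ipsilaterally and 6493 contralaterally. For thalamus markers these medians were 4114 and 4613, and for striatum markers 2659 and 3542. The part of neighbouring tissue at 3 h was not tested.

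Within single genotypes, with 2 libraries a side, fewer of the 9 genes were called and all called ones were lower. In WT, Wfs1 alone was called at 3 h (-0.94, SE 0.26; limma adjusted p = 0.045, n = 2 libraries a side; 1.79% of genes tested lower), and a fit with the animal as a block called 0. At 6 h in WT, 6 were called (10.3% of genes tested lower): Lct (-2.68), Prox1 (-2.15), Spink8 (-2.14), Fibcd1 (-2.09), Neurod6 (-1.44) and C1ql2 (-0.88), while Wfs1 was at 0.06. That count was 2 without WT contralateral or ipsilateral replicate 2, 3 without the 2 animals that stood apart, and 0 with a term for thalamus markers.

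The libraries labelled Neil1-KO had 2 genes called at 3 h, C1ql2 (-0.99) and Calb1 (-0.69), with 9.85% of genes tested lower. That count was 0 without contralateral replicate 2 or ipsilateral replicate 1, 1 without contralateral replicate 1 or with a term for Xist, and 6 in a fit of those groups alone or without the 2 animals of 6 h. At 6 h there were 6: Lct (-2.83), Fibcd1 (-2.13), C1ql2 (-1.54), Pou3f1 (-1.52), Neurod6 (-1.45) and Calb1 (-0.86), with 21.4% of genes tested lower. Leaving out ipsilateral replicate 2 left 3, and leaving out the animal left 1. In Neil2-KO, Wfs1 (-1.22) and C1ql2 (-1.03) were called at 3 h, with 4.95% of genes tested lower. At 6 h in Neil2-KO, Lct (-1.82), Wfs1 (-1.33), C1ql2 (-0.88) and Neurod6 (limma adjusted p = 0.039) were called, with 12.6% lower. Counts in Neil2-KO moved to 0 to 1 at 3 h and 1 to 3 at 6 h without 1 library, and to 6 and 7 without the 2 animals of the other genotypes, whose spread the fit shares.

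Genotypes were then compared on each side over both times. C1ql2 was the 1 gene called between labelled Neil1-KO and WT on the ipsilateral side, at a log2 fold change of -0.93 (SE 0.21; limma adjusted p = 0.014, n = 4 libraries a group), where 7.4% of genes tested were lower. The call was lost with a term for Xist, with a term for choroid plexus markers, without labelled Neil1-KO 6 h replicate 2 and in a fit of those groups alone. It was kept in only 4 of 8 fits without 1 library, where the value of C1ql2 ran from -1.18 to -0.67. On the contralateral side, where 0.103% of genes tested were called, 0 of the 9 were called, with C1ql2 at -0.32 (SE 0.21; adjusted p = 0.87). The side difference of C1ql2 in labelled Neil1-KO minus that in WT was -0.60 on the log2 scale (SE 0.30; limma adjusted p = 0.36, n = 8 libraries a genotype), and this was not called.

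For Neil2-KO against WT, 0 of the 9 genes were called on either side, where 0.0817% of genes tested were called contralaterally and 0.109% ipsilaterally. Wfs1 was the highest contralaterally in Neil2-KO, at 2651 to 3228 against 1487 to 2659 in WT and 1624 to 1802 in labelled Neil1-KO. Its log2 fold change between Neil2-KO and WT was 0.56 contralaterally (SE 0.18; limma adjusted p = 0.47, n = 4 libraries a group) and -0.27 ipsilaterally (SE 0.18; adjusted p = 0.88). In a fit of those groups alone, 1 of the 9 genes, Wfs1, was called higher contralaterally. Spink8 was at 1.05 ipsilaterally (SE 0.42; adjusted p = 0.79). That value includes WT ipsilateral replicate 2 at 6 h, at 6.58 beside 56.1 to 98.5 in the other WT ipsilateral libraries, and is not given without it.

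The differences between genotypes in the side response were called for 0 of the 9 genes and 0% of genes tested by limma, with 2652 genes at an unadjusted p under 0.05 for labelled Neil1-KO and 976 for Neil2-KO. edgeR called 0 genes in both comparisons, and DESeq2 called 2 and 1 genes in the whole table and 0 of the 9. Among the 9 genes the values for labelled Neil1-KO against WT ran from -0.60 (C1ql2) to 0.53 (Spink8), with SEs of 0.22 to 0.59. For Neil2-KO against WT they ran from -0.83 (Wfs1, SE 0.26; limma adjusted p = 0.87, n = 8 libraries a genotype) to 1.05 (Spink8, SE 0.59). Both Spink8 values include WT 6 h replicate 2, with a log2 side ratio of -3.52 beside -0.77 to -0.41 in the other WT animals. Differences of this size were thus not resolved with 2 animals a genotype and time, and the result does not show that the genotypes were alike.

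Times were compared last, to ask whether the subfield genes changed between 3 h and 6 h. On the ipsilateral side, 4 of the 9 were lower at 6 h (7.52% of genes tested lower): Lct at -1.39 (log2; SE 0.34; limma adjusted p = 0.013, n = 6 libraries a time), Fibcd1 at -1.03 (SE 0.24; adjusted p = 0.011), Neurod6 at -0.64 (SE 0.20; adjusted p = 0.040) and Calb1 at -0.53 (SE 0.13; adjusted p = 0.013). Spink8 was at -1.04 (SE 0.34; adjusted p = 0.053) and Wfs1 at -0.10 (SE 0.15; adjusted p = 0.70). The count was 0 with a term for thalamus markers or in a fit of those groups alone, 2 without both animals that stood apart, and 1 to 7 without 1 library. The call of Neurod6 was lost in 8 of 12 fits without 1 library, and with edgeR (adjusted p = 0.067) and DESeq2 (adjusted p = 0.070). On the contralateral side 0 of the 9 were called, where 0.332% of genes tested were, with values from -0.26 (Wfs1) to 0.30 (Prox1). By limma 2318 genes had an unadjusted p under 0.05 there, and edgeR and DESeq2 also called 0 of the 9.

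The change of the side difference from 3 h to 6 h was itself tested and called for 0 of the 9 genes, where 1.9% of genes tested were called and 3057 had an unadjusted p under 0.05 by limma. The largest was that of Lct, at -1.18 (SE 0.48; limma adjusted p = 0.22, n = 12 libraries a time), followed by Spink8 at -0.92 (SE 0.48; adjusted p = 0.35), Neurod6 at -0.88 (SE 0.28; adjusted p = 0.11) and Prox1 at -0.83 (SE 0.41; adjusted p = 0.31). These values rest in part on the 2 animals that stood apart. Without them the 6 h side differences of these genes, in that order, were -1.76, -0.55, -0.89 and -0.66. The 3 h ones were -1.27, -0.31, -0.42 and -0.47. edgeR and DESeq2 called 0 of the 9, and the count was 0 to 3 without 1 library. A gene called at 6 h and not at 3 h, such as Prox1, is therefore not shown to differ between the times.

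Across the 24 libraries the 9 genes did not move as 1 set. The highest Pearson r of log2 values between members was that of Lct with Fibcd1 (0.94), a dentate and a CA1 gene, and the lowest was that of Prox1 with Wfs1 (0.10). Wfs1 also had a low r with Spink8 (0.11), another CA1 gene, and with Neurod6 (0.29). The libraries share the split by side, which raises r for any genes that differ between the sides, and the r values describe these libraries and carry no test. They include the 2 animals that stood apart and were not computed without them. WT ipsilateral replicate 2 at 6 h had the least Prox1 (335) and the most Wfs1 of any ipsilateral library (2493).

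For each member, the 3 genes most like it over the same 24 libraries were taken among genes with a mean of at least 50. For Prox1 they were Rwdd3 (r = 0.95), Neurod1 (0.94) and Zbtb20 (0.94). For Lct they were Gmpr (0.97), Ppp3ca, a catalytic subunit of calcineurin (0.97), and Gria1, an AMPA receptor subunit (0.96), and Gria1 was also nearest to Fibcd1 (0.96), followed by Tspan13 and Shisa6. C1ql2 was nearest to Nptx1, a neuronal pentraxin (0.95), Syn2, a synapsin (0.94), and Camkk1 (0.94), and Calb1 to Ust (0.96), Aqp11 (0.95) and Cadps2 (0.95). Neurod6 was nearest to Zbtb18 (0.96), Gpr63 (0.96) and Shisa6 (0.95), and Pou3f1 to Nudt11 (0.94), Tubb2a (0.94) and Neurod2 (0.93). Spink8 (Slc9a4, 0.91, Frzb, 0.91, and Arhgap15, 0.90) and Wfs1 (Oxa1l, 0.86, Rps6kc1, 0.86, and Slc38a10, 0.85) had the lowest nearest values.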

How the data were processed

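RNA-seq of 24 hippocampal libraries was analysed, 2 for each combination of genotype, time and side. Per the labels' protocols, total RNA was extracted with the AllPrep DNA/RNA/Protein kit (Qiagen), checked on a Bioanalyzer and made into standard Illumina libraries, with no statement on strand. Trim Galore, HISAT2, SAMtools, featureCounts, DESeq2 and the builds GRCm39 and mm39 are named in the submitters' processing notes, with no versions. The deposited table holds a signal per gene, the authors' size-factor normalized read count. All values (100%) were whole multiples of what 1 read is worth, within 1e-06, so reads were recovered for the count tests. Of 33084 rows, 10770 (32.6%) carried no gene name, held 8.41% to 12.5% of reads and were left out.

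Genes at 10 or more in at least 2 libraries were tested (18364) with limma 3.58.1 in R 4.3.3 on log2(value + 1), with 12 group means sharing 1 estimate of the spread (12 residual degrees of freedom) and Benjamini-Hochberg adjustment over all genes tested. Fold changes are on that log2 scale, which understates those of low genes. The 8 libraries titled Neil2-KO carry the other genotype in their tag and were grouped by title. Where nothing shows separate animals, p-values measure only the spread between these libraries. Alternatives were edgeR 4.0.16 with TMM scaling, DESeq2 1.42.0, a pseudocount of 5, no filter, only the compared groups, an animal block, terms for Xist, thalamus or choroid plexus markers, and leaving out libraries or animals. The scripts were tested on simulated data. The pairing by animal rests on the series' design, by which both sides were collected from each replicate. Same-numbered sides had correlated deviations of -0.0058 and -0.0033 in WT, 0.27 and 0.15 in labelled Neil1-KO and 0.054 and 0.035 in Neil2-KO at 3 h and 6 h. The members, the lists and the tests were chosen with earlier results of these data known. Named genes were all members, up to 4 genes a list with the smallest adjusted p at 6 h, defining markers as values, and the 3 most similar genes of each member. The values of 1 marker gene are not reported here.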

Additional observations from a re-analysis of the deposited data

How the results depend on the processing

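No called fold change of a member changed direction. Of 3114 refitted values, 138 had the other sign, none called in either fit, and 8 of these were between the sides, such as Wfs1 in WT at 6 h, at 0.06 and at -0.62 without both animals that stood apart. For 44 results, those called in the main fit and the side differences averaged over genotypes, 840 fold changes of members were refitted. Of these, 115 lost their call and 5 gained one. Only Prox1, Spink8 and Neurod6 at 3 h could gain a call here, as the other results were called from the start. Averaged over genotypes, between 5 and 9 genes were called lower at 3 h and 8 or 9 at 6 h under every other setting, and 4 to 6 and 9 to 9 without 1 library. With the replicate block, which pairs the sides by animal, the count in WT at 3 h went from 1 to 0, and no other count moved by over 1.5 times. With only the compared groups, the counts were 3 in WT at 3 h, 6 and 1 in labelled Neil1-KO at 3 h and 6 h, 5 and 8 in Neil2-KO, 0 for 6 h against 3 h ipsilaterally, 0 for labelled Neil1-KO against WT ipsilaterally and 1 for Neil2-KO against WT contralaterally. Without both animals that stood apart, chosen after seeing the data, they were 3 and 3 in WT, 6 in labelled Neil1-KO at 3 h, 6 and 7 in Neil2-KO and 2 for 6 h against 3 h ipsilaterally. Without the labelled Neil1-KO animal alone they were 1 in labelled Neil1-KO at 6 h, 5 in Neil2-KO at 3 h and 0 for labelled Neil1-KO against WT ipsilaterally. A term for thalamus markers gave 0 in WT at 6 h, 1 in Neil2-KO at 3 h and 0 for the times ipsilaterally, a term for Xist gave 1 in labelled Neil1-KO at 3 h, and terms for Xist or choroid plexus markers gave 0 for labelled Neil1-KO against WT ipsilaterally. The cause was not tested, and in fits with fewer libraries counts went down in some comparisons and up in others.

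Without 1 library, the count ran from 0 to 0 in WT at 3 h, 2 to 8 in WT at 6 h, 0 to 2 and 3 to 7 in labelled Neil1-KO, and 0 to 1 and 1 to 3 in Neil2-KO. It ran from 1 to 7 for 6 h against 3 h ipsilaterally, 0 to 0 contralaterally and 0 to 3 for the change of the side difference with time. For labelled Neil1-KO against WT it ran from 0 to 0 contralaterally, 0 to 4 ipsilaterally and 0 to 2 for the side difference, and for Neil2-KO against WT 0 to 0, 0 to 3 and 0 to 3. Low reads limit Lct and Spink8, whose lowest libraries held 9 and 8 reads.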
